A study of Mus musculus with 6 samples.

Results

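Genes that drive or restrain the cell division cycle were followed in whole mouse corneas before and after an alkali burn, a chemical injury after which blood vessels grow into the normally avascular cornea. The set held 44 genes listed by symbol, from the cyclins and kinases of G1 to the machinery of mitosis and the inhibitors of cyclin-dependent kinases, and each of the 44 was found in the deposited table of 28539 loci. Day 0 corneas were untreated, and the other 2 groups were taken 5 and 15 days after the burn, with 2 samples in each of the 3 groups. All mice were female C57BL/6J of 6 to 8 weeks, and the labels name no transgene, knockout or drug. Whether both samples of each group are different animals, and how many corneas each holds, is not stated in the labels.

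A cell enters the cycle when D-type cyclins activate Cdk4 and Cdk6 and, after them, E-type cyclins activate Cdk2, which releases E2F factors to switch on the genes of DNA replication. Cyclin A and the B cyclins with Cdk1 then drive G2 and mitosis, whose genes are under Foxm1 and the MuvB complexes, and the anaphase-promoting complex ends mitosis by marking cyclins for destruction. Inhibitors of the Cip/Kip and Ink4 families hold these kinases back in resting cells. In the cornea, division is normally a matter of basal epithelial cells and of limbal stem cells at its rim, while keratocytes of the stroma rest until they are injured.

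Levels are in FPKM (fragments counted relative to transcript length and library size), which the authors deposited as 1 value per group with an interval. The range in brackets after a value is that interval. No value of a single sample was given, so the spread between samples is unknown and no test was run. Apart, in what follows, means that a locus reached FPKM 1 in the higher of 2 groups, that (FPKM + 1) differed at least 2-fold, a log2 ratio of 1 or more in size, and that the intervals were disjoint. A looser rule, called past 2-fold, left out the intervals, and a past 1.5-fold rule lowered the ratio as well. Such calls describe these libraries and are not p-values. Folds are plain ratios of FPKM.

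Day 5 against day 0 asks how division genes stood while the wound was recent. Most genes of replication and mitosis were higher at day 5 (9 of 10 and 15 of 16, or 7 and 13 when rescaled by the reference genes described below), whereas the leading G1 cyclin and 2 inhibitors were lower. Of 43 genes with FPKM of at least 1 on either day, 35 had a higher value at day 5, against 44.9% of all 15576 loci so filtered, and 8 had a lower one, against 55.1%. E2f1, among the 35, passed that filter only through day 5 and so had to be higher there. The median log2 ratio of the 44 was 0.54, against -0.08 for 15900 loci with FPKM of at least 1 on any day. By the past 1.5-fold rule 20 were higher, against a share of 19.7% of all loci, and 3 were lower, against 23.2%. By the past 2-fold rule 6 were higher (Mcm7, Ccnb1, Mki67, Bub1, Tpx2 and Cenpe), against 10.8% of all loci, and 3 were lower (Ccnd1, Cdkn1b and Cdkn2b), against 11.1%. The count past 2-fold on the higher side was thus close to that background, and the set stood off it in the smaller ratios. None was higher and apart, against 3.42% of loci, and Ccnd1 and Cdkn1b were lower and apart, against 2.50%. A rule between these asks that each FPKM lie outside the other day's interval, and by it 5 genes were higher (the 6 above without Mcm7), against 6.11% of loci, and 3 were lower, against 5.39%.

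Rescaling shifts all genes alike, so that those near a ratio of 1 change sides. A list of 12 reference genes had a median log2 ratio of 0.35 at day 5 over day 0, and 0.26 at day 15 over day 0. Rescaled by that list, 29 of the 44 were higher at day 5, against 30.2% of all loci under the same rescaling, with a median of 0.23, and Ccne2, Cdk2, Mcm6, Pcna, Birc5, Ube2c and Cdkn1a changed sides. Rescaled to a median of 0 over all loci, 37 were higher, against 48.8% of loci, and Ccna2 changed sides.

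Day 15 against day 0 asks what was still different when the wound was older. Most division genes had day 15 values near those of day 0. The median log2 ratio was 0.01, with 22 genes higher and 22 lower, where 43.1% of 15186 loci were higher and 56.9% lower; rescaled by the reference genes the median was -0.23, with 8 higher, against 29.7% of loci so rescaled, and 36 lower. By the past 2-fold rule Cdkn2a was higher, against 8.36% of loci on that side, and Ccnd1 and Cdkn1b were lower, against 9.43%. Cdkn2a passed the filter of FPKM 1 only through day 15, so it had to be higher there. By the past 1.5-fold rule Tyms and Ube2c joined the lower side, for 4 in all, against 21.4%, and Cdkn2a stayed the 1 on the higher side, against 16.0%. Ccnd1 was the 1 gene lower and apart, against 1.81%, and none was higher and apart, against 2.91%. With each FPKM outside the other day's interval, Cdkn2a was higher, against 5.32%, and Ccnd1 and Cdkn1b were lower, against 3.70%.

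Day 15 against day 5 follows the burned cornea over time. All 40 genes other than the inhibitors had a lower value at day 15, and 3 of the 4 inhibitors, Cdkn1b, Cdkn2a and Cdkn2b, had a higher one. Of these 3, Cdkn2a passed the filter of FPKM 1 only through day 15, so it had to be higher there. Cdkn1b was 1.20-fold higher, with overlapping intervals. In all 41 of 44 were lower, against 51.2% of 14683 loci, and 3 were higher, against 48.8%, and the median log2 ratio was -0.51, against -0.01 for all loci. This held at 41 of 44 under each of 3 rescalings. By the past 1.5-fold rule 19 were lower, against 10.1% of loci, and 2 were higher, against 8.24%. By the past 2-fold rule Rrm2 and Mki67 were lower, against 3.35%, and Cdkn2a was higher, against 2.62%. The same genes were called when each FPKM had to lie outside the other day's interval, against 0.967% of loci on the lower side and 1.22% on the higher. None was apart, against 0.388% lower and 0.395% higher among all loci. The 3 comparisons share their groups pairwise, so a high day 5 value enters both the first and the last.

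Over the 3 days, 35 of the 44 had their highest FPKM at day 5, against 31.4% of all loci. Another 8 had it at day 0, against 46.3%, and Cdkn2a alone had it at day 15, against 22.3%. Rescaled by the reference genes, 28 were highest at day 5 and 15 at day 0. The share of all loci highest on each day is not given under that rescaling, so these counts have no background here. Among the better measured, with FPKM of at least 5 on some day, 33 of 40 were highest at day 5, against 29.9% of 10062 loci. The 8 highest at day 0 were Ccnd1, Ccnd2, Ccne1, Tyms, Ccna2, Cdc20, Cdkn1b and Cdkn2b. Of these, Ccnd2, Tyms, Ccna2 and Cdc20 lie on loci that span 3.23, 2.27, 2.67 and 2.08 times the annotated gene, so that their values may include other transcripts. Another 4 genes have loci over 1.5 times the annotated span: Ccne2, Foxm1, Mcm7 and Kif20a. The Foxm1 row also carries the symbol 4933413G19Rik.

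**Figure D1:**
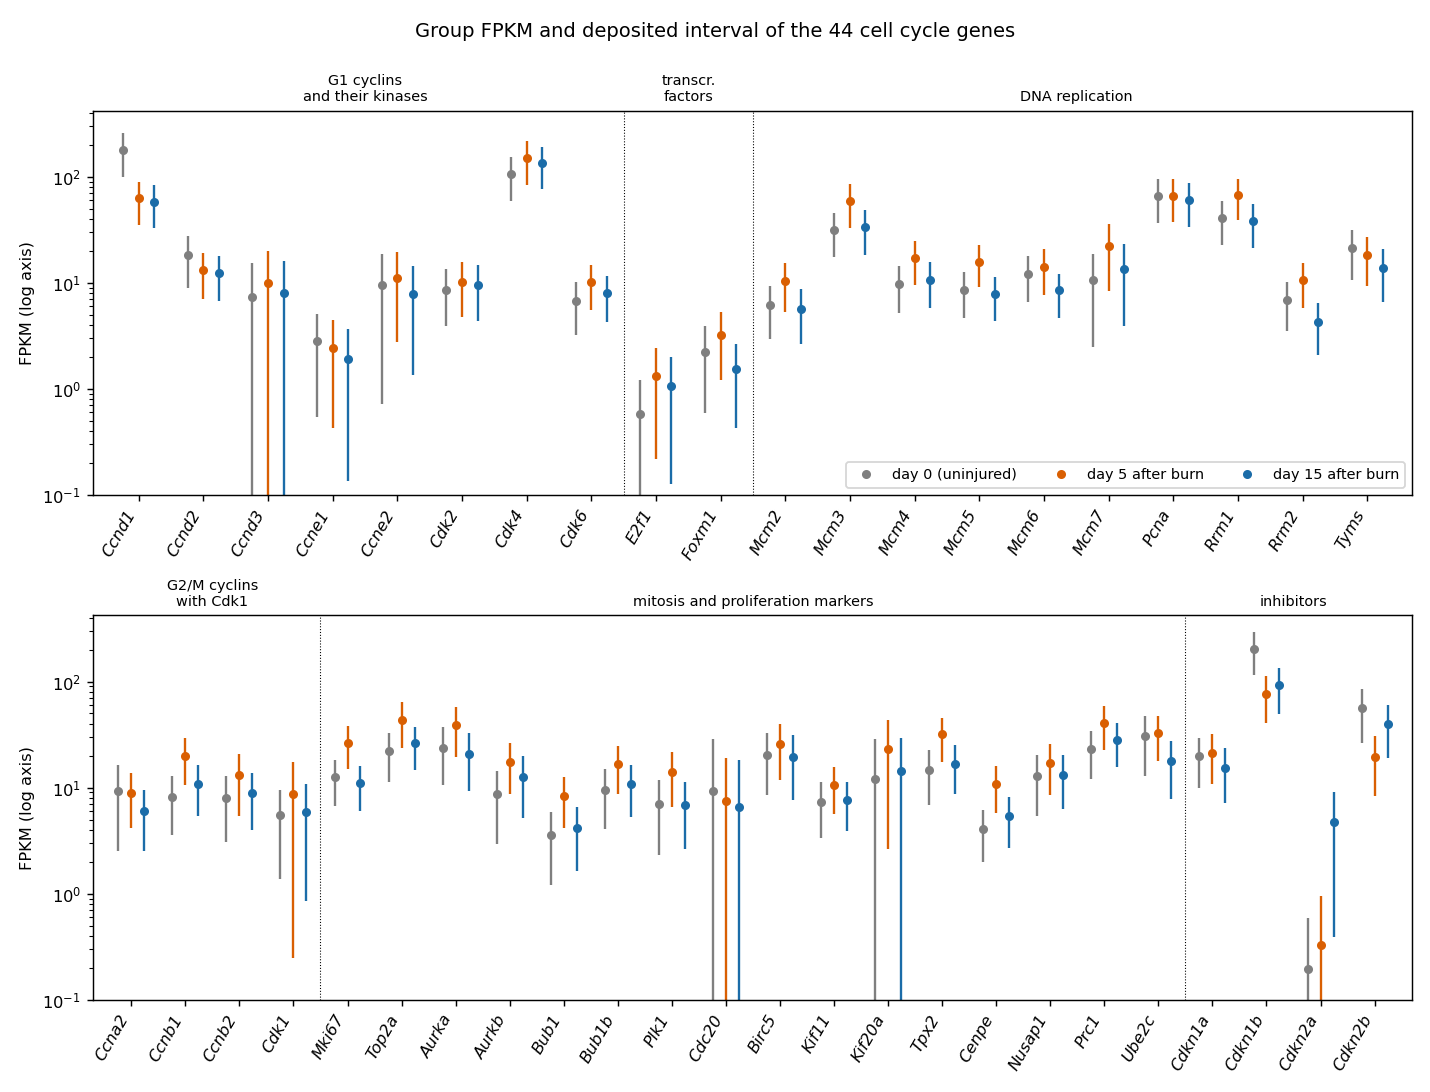
FPKM on a log axis for each of the 44 genes at day 0 (grey), day 5 (orange) and day 15 (blue), with vertical lines for the authors' interval; a lower bound under 0.1, often 0, is drawn to the bottom of the axis. Most replication and mitosis genes have their highest point at day 5 with overlapping lines (9 of 10 and 15 of 16, or 7 of 10 and 13 of 16 if rescaled by the reference genes), while Ccnd1 and Cdkn1b are highest at day 0 and Cdkn2a at day 15.

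The levels themselves ran over 3 orders of size. At day 0 the most abundant of the 44 was Cdkn1b, an inhibitor, followed by the G1 cyclin Ccnd1 and its partner kinase Cdk4. At days 5 and 15 Cdk4 was first and Cdkn1b second. Their neighbours in this order, Pcna, Rrm1 and Ccnd1 at day 5, had intervals that overlapped each other, so that their order there is not settled. E2f1 and Cdkn2a were the lowest 2 at day 5, with FPKM of 1.32 and 0.327.

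Among the G1 cyclins and kinases the largest difference was in Ccnd1, the D-type cyclin that couples growth signals to the cycle (chromosome 7, 144928591 to 144939933 on mm10, a locus that overlaps LTO1 on the other strand). Its FPKM was 178 (98.5 to 256) on day 0, 62.4 (35.1 to 89.6) on day 5 and 58.3 (32.8 to 83.7) on day 15. The day 0 interval lay wholly above the other 2, and the day 5 and day 15 values were close to each other. Ccnd1 was 2.85-fold lower at day 5 than at day 0 (log2 ratio -1.49) and 3.05-fold lower at day 15 than at day 0 (log2 ratio -1.59), and was apart under each other setting tried.

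The sister cyclins did not follow it by the same amount. Ccnd2 had 18.4 (8.92 to 27.8) on day 0, 13.1 (6.97 to 19.2) on day 5 and 12.3 (6.801 to 17.8) on day 15, with all 3 intervals overlapping, and Ccnd3 had 7.39 (0 to 15.5) on day 0, 9.93 (0 to 20.1) on day 5 and 7.94 (0 to 16.2) on day 15. Ccnd3 was so loosely estimated that its intervals began at 0 each day, and its locus overlaps Bysl. Ccnd1 made up 87.3% of the summed FPKM of the 3 D-type cyclins at day 0, 73.1% at day 5 and 74.2% at day 15, of sums of 203, 85.4 and 78.5.

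The kinases that D-type cyclins activate were steady or slightly higher after the burn. Cdk4 had 107 (59.4 to 154) on day 0, 150.02 (84.2 to 216) on day 5 and 134 (76.02 to 193) on day 15, and Cdk6 had 6.72 (3.198 to 10.2) on day 0, 10.1 (5.56 to 14.6) on day 5 and 7.97 (4.24 to 11.7) on day 15. The day 5 value was 1.41-fold that of day 0 for Cdk4 and 1.4998-fold for Cdk6, with overlapping intervals for both. The Cdk4 locus overlaps Tspan31 on the other strand, and without stranded counting the reads of such pairs cannot be told apart.

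Of the E-type cyclins, which open the door to replication, Ccne1 had 2.802 on day 0, 2.42 on day 5 and 1.92 on day 15 and Ccne2 9.6004 on day 0, 11.2 on day 5 and 7.82 on day 15. Their kinase Cdk2, on a locus that overlaps Pmel on the other strand, had 8.63 on day 0, 10.2 on day 5 and 9.51 on day 15. None of these 3 moved past 1.5-fold in any comparison. As a role group, the 8 G1 genes had a median log2 ratio of 0.21 at day 5 over day 0, -0.09 at day 15 over day 0 and -0.19 at day 15 over day 5. At day 5, 5 of the 8 were higher than at day 0, and 3 of 8 when rescaled by the reference genes.

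**Figure D2:**
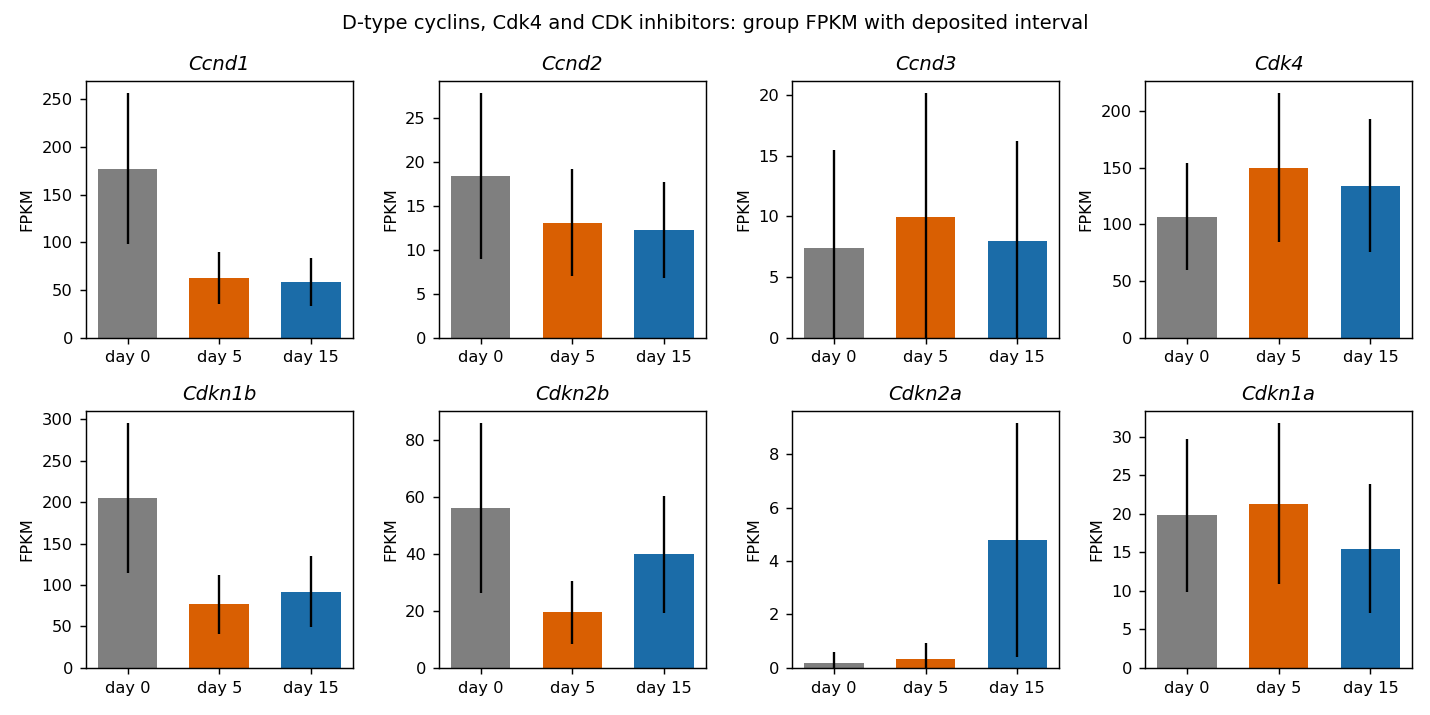
FPKM (linear axis from 0, scaled per gene) of 3 D-type cyclins, Cdk4 and 4 kinase inhibitors at day 0, day 5 and day 15; bars are the group values and black lines the authors' interval. Ccnd1 and Cdkn1b are tallest at day 0 (178 and 205), Cdkn2b is lowest at day 5 (19.5), and Cdkn2a is near 0 until day 15 (4.77).

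The transcription factors of the cycle were among the lowest of the set. E2f1, which activates replication genes, had 0.584 (0 to 1.203) on day 0, 1.32 (0.219 to 2.42) on day 5 and 1.06 (0.127 to 1.99) on day 15. Foxm1, which activates mitotic genes, had 2.23 (0.588 to 3.88) on day 0, 3.23 (1.203 to 5.26) on day 5 and 1.54 (0.429 to 2.64) on day 15. Both were highest at day 5, but neither passed 2-fold on the (FPKM + 1) scale. E2f1 passed the filter of FPKM 1 only through the days after the burn, so it had to be higher there than on day 0. Its place among the higher genes supports nothing further. Foxm1 at day 15 was 2.104-fold lower than at day 5 as a plain ratio, with a log2 ratio of -0.74.

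Replication genes were higher at day 5 with 1 exception, Tyms, or with 3 (Tyms, Mcm6 and Pcna) when rescaled by the reference genes. The 6 subunits of the MCM helicase, the ring that unwinds DNA at the fork, had a summed FPKM of 78.5 on day 0, 139 on day 5 and 79.7 on day 15. Mcm3, the most abundant of the 6 on each day, had 31.3 (17.4 to 45.3) on day 0, 58.8 (33.03 to 84.6) on day 5 and 33.5 (18.4 to 48.5) on day 15. Its day 5 interval overlapped both others, as was so for every subunit.

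The subunits differed in how far they stood above day 0. Mcm7 was 2.11-fold higher, Mcm3 1.88-fold, Mcm5 1.84-fold, Mcm4 1.76-fold and Mcm2 1.69-fold, while Mcm6 was 1.17-fold and changed sides when rescaled by the reference genes. The Mcm7 locus also spans Taf6, Cops6 and Ap4m1, so its value may include other transcripts. Between day 5 and day 15 the order changed: Mcm5 was 2.01-fold lower at day 15, Mcm2 1.82-fold, Mcm3 1.76-fold, Mcm6 1.68-fold, Mcm7 1.65-fold and Mcm4 1.59-fold.

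Pcna, the clamp that holds polymerases on DNA and also serves repair, was flat. It had 65.5 (36.6 to 94.4) on day 0, 66.4 (37.6 to 95.1) on day 5 and 60.6 (33.7 to 87.5) on day 15, a day 5 value 1.01-fold that of day 0. Thus the RNA of a standard proliferation label did not separate the days. Mki67 and Top2a had higher values at day 5 than on both other days, with overlapping intervals. Their day 15 values were 0.89 and 1.19 times those of day 0, so these 2 days were not separated.

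The nucleotide supply enzymes were split. Rrm1, the large subunit of ribonucleotide reductase, had 40.9 (22.7 to 59.2) on day 0, 67.5 (39.4 to 95.6) on day 5 and 38.2 (21.3 to 55.1) on day 15. Rrm2, its small and cycle-limited subunit, had 6.85 (3.54 to 10.2) on day 0, 10.6 (5.73 to 15.4) on day 5 and 4.27 (2.096 to 6.44) on day 15. Both were highest at day 5, and Rrm2 at day 15 was 2.48-fold lower than at day 5, past 2-fold, with the day 15 value below the day 5 interval and the day 5 value above the day 15 interval. Tyms, thymidylate synthase, instead had its highest value at day 0, with 21.1 on day 0, 18.2 on day 5 and 13.7 on day 15. The 10 replication genes together had median log2 ratios of 0.69, -0.10 and -0.73 for day 5 over day 0, day 15 over day 0 and day 15 over day 5.

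The cyclins of G2 and mitosis were led at day 5 by Ccnb1, the cyclin that takes Cdk1 into mitosis. Its FPKM was 8.21 (3.55 to 12.9) on day 0, 19.9 (10.7 to 29.2) on day 5 and 10.9 (5.45 to 16.3) on day 15, and the day 5 value was 2.43-fold that of day 0. Each of these 2 values lay outside the other's interval, yet the intervals overlapped. Ccnb2, a B cyclin of the Golgi, had 7.94 on day 0, 13.1 on day 5 and 8.84 on day 15, and Cdk1 itself 5.48 on day 0, 8.75 on day 5 and 5.87 on day 15. Ccna2, the cyclin of S phase and G2, was the exception in this role, with 9.36 (2.52 to 16.2) on day 0, 8.88 (4.17 to 13.6) on day 5 and 6.02 (2.55 to 9.497) on day 15. The Ccna2 locus reaches over Exosc9 on the other strand.

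The 16 genes of mitosis and the proliferation markers had the highest median of any role at day 5 over day 0, a log2 ratio of 0.83. Individual genes ran between -0.27 and 1.22, a span that overlaps that of the replication genes, -0.20 to 1.01. At day 15 over day 0 the median was 0.10 and at day 15 over day 5 it was -0.69. Of the 16, 15 had a higher value at day 5 than at day 0 (13 when rescaled by the reference genes), against 44.9% of all loci, and 11 passed 1.5-fold on the higher side, against 19.7%. Their summed FPKM was 222 on day 0, 365 on day 5 and 222 on day 15.

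The genes with the largest ratios serve the kinetochore and spindle. Cenpe, the kinesin that carries chromosomes to the spindle equator, had 4.09 (1.995 to 6.19) on day 0, 10.8 (5.71 to 15.98) on day 5 and 5.401 (2.69 to 8.11) on day 15. Bub1, a kinase of the spindle checkpoint, had 3.56 (1.22 to 5.89) on day 0, 8.39 (4.18 to 12.6) on day 5 and 4.13 (1.64 to 6.62) on day 15. Tpx2, which nucleates microtubules around chromosomes, had 14.7 (6.92 to 22.5) on day 0, 31.7 (17.6 to 45.8) on day 5 and 16.9 (8.78 to 24.97) on day 15. In each the day 5 value lay above the day 0 interval and the day 0 value below the day 5 interval, at 2.65-fold, 2.36-fold and 2.16-fold the day 0 level.

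Mki67, whose protein coats mitotic chromosomes and is the common label of dividing cells (chromosome 7, 135689484 to 135716381), had 12.5 (6.66 to 18.3) on day 0, 26.4 (14.9 to 37.9) on day 5 and 11.1 (6.07 to 16.2) on day 15. It was 2.11-fold higher at day 5 than at day 0 and 2.37-fold lower at day 15 than at day 5, the largest drop among the 44 on the log2 scale. Top2a, the topoisomerase that untangles sister chromatids, had 21.97 (11.4 to 32.5) on day 0, 43.6 (23.7 to 63.5) on day 5 and 26.1 (14.5 to 37.6) on day 15. It stayed just short of 2-fold at day 5, with a log2 ratio of 0.96.

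The mitotic kinases had similar ratios. Aurkb, of the chromosomal passenger complex, had 8.697 (2.95 to 14.4) on day 0, 17.6 (8.696 to 26.4) on day 5 and 12.5 (5.19 to 19.8) on day 15, and Plk1, the polo kinase, 7.05 (2.297 to 11.8) on day 0, 14.03 (6.55 to 21.5) on day 5 and 6.93 (2.62 to 11.2) on day 15. Aurka, the kinase of the spindle poles and the partner of Tpx2, had 23.8 on day 0, 38.6 on day 5 and 20.9 on day 15, and the checkpoint kinase homologue Bub1b 9.46 on day 0, 16.6 on day 5 and 10.8 on day 15. All 4 were highest at day 5, between 1.62-fold (Aurka) and 2.02-fold (Aurkb) the day 0 level. Aurkb kept the highest day 15 level relative to day 0 of the 16, at 1.44-fold.

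Motors and bundlers of the spindle differed more. Kif20a, a kinesin of cytokinesis, was 1.91-fold and Prc1, which bundles the central spindle, 1.76-fold the day 0 level at day 5. Kif11, the motor that pushes the poles apart, was 1.44-fold and Nusap1, a microtubule binder, 1.33-fold. The interval of Kif20a began at 0 on days 0 and 15, on a locus 6.16 times the length of the gene that takes in Cdc23 and Brd8. The loci of Prc1 and Nusap1 overlap Rccd1 and Oip5 on the other strand.

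Of the 16, the genes nearest their day 0 level at day 5 were Birc5, Ube2c and Cdc20. Birc5, the survivin subunit of the passenger complex, had 20.5 (8.59 to 32.4) on day 0, 25.9 (11.8 to 40.001) on day 5 and 19.6 (7.65 to 31.5) on day 15. Ube2c, the ubiquitin enzyme of the anaphase-promoting complex, had 30.4 (12.9 to 47.9) on day 0, 32.4 (17.7 to 47.2) on day 5 and 17.7 (7.76 to 27.7) on day 15, level between days 0 and 5 and 1.83-fold lower at day 15 than at day 5. Cdc20, the activator of that complex, had 9.23 (0 to 28.7) on day 0, 7.49 (0 to 18.9) on day 5 and 6.596 (0 to 18.03) on day 15, with intervals that began at 0 each day and allow no ordering.

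**Figure D3:**
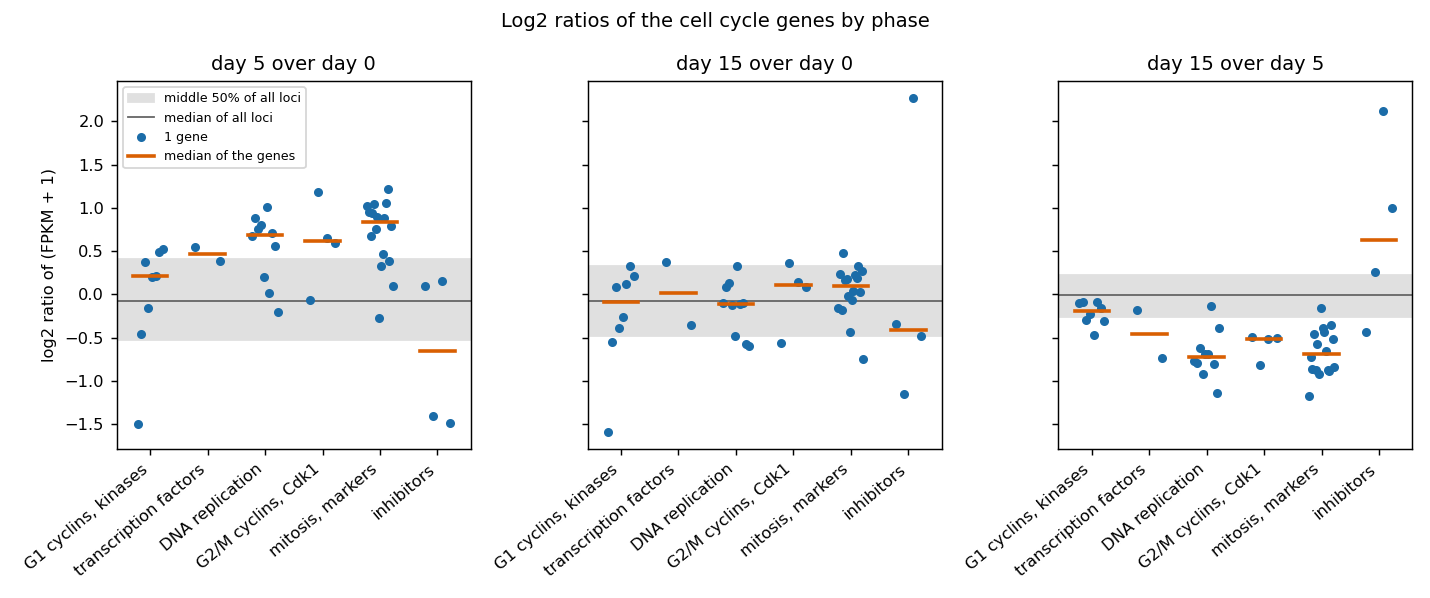
Log2 ratio of (FPKM + 1) for each gene (blue points) by role, in 3 panels for day 5 over day 0, day 15 over day 0 and day 15 over day 5; orange bars are role medians, and the grey line and band are the median and middle 50% of 15900 loci. Replication and mitosis medians (0.69 and 0.83) lie above the band at day 5 over day 0, inside it at day 15 over day 0, and below it at day 15 over day 5 (-0.73 and -0.69), while the inhibitors spread in both directions; rescaling by the reference genes lowers ratios over day 0 by about 0.35 at day 5 and 0.26 at day 15.

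Many mitotic genes are known to carry a CCAAT box and a CHR element (cell cycle genes homology region) near their start, which bind NF-Y and the MuvB complexes. RefSeq windows from 250 bases before to 50 after the start (GRCm38.p6, the assembly behind mm10) were matched by symbol for 35 of the 44. The windows below are those of the 5 genes with the largest day 5 over day 0 ratio among members that hold both motifs. Each is read on the gene's own strand, and capitals mark the CCAAT box and the CHR spellings TTTGAA and TTTAAA on either strand.
Cenpe, chr3:135212313-135212612, plus strand: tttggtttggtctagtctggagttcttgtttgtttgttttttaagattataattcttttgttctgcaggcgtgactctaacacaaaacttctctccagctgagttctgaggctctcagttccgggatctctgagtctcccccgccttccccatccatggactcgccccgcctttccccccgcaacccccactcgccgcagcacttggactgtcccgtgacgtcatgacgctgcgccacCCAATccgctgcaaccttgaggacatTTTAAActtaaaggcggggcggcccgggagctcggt
Ccnb1, chr13:100786437-100786736, minus strand: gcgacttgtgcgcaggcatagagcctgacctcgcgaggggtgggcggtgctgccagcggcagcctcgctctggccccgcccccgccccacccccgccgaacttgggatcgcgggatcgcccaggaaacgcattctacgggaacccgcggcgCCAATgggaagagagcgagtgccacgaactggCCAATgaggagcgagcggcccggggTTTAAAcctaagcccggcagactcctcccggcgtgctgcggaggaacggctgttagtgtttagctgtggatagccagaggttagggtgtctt
Mki67, chr7:135716330-135716629, minus strand: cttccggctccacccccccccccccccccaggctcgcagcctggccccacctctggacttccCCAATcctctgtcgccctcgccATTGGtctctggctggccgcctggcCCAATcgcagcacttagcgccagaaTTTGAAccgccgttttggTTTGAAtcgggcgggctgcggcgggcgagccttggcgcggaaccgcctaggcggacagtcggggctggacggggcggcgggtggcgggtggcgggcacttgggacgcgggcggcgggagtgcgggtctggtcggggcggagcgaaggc
Top2a, chr11:99024140-99024439, minus strand: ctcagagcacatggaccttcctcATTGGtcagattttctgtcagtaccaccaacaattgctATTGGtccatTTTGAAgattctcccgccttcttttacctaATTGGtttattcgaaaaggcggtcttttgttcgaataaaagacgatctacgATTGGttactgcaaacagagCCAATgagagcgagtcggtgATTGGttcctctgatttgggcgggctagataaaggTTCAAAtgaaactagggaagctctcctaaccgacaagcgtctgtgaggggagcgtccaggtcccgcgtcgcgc
Plk1, chr7:122159185-122159484, plus strand: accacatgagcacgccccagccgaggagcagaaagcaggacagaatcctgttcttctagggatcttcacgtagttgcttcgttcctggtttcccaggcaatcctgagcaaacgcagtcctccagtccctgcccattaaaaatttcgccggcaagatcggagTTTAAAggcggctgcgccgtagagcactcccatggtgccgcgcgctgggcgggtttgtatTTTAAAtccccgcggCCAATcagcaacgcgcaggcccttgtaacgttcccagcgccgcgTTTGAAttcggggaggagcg

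In Cenpe the CCAAT letters began 12 bases before the start and the TTTAAA 15 bases after it. Ccnb1 held CCAAT 99 and 67 bases before its start and TTTAAA 42 bases before it. Mki67 had a pair of TTTGAA motifs 116 and 98 bases upstream, with CCAAT letters on both strands farther up. Top2a had 6 CCAAT motifs, 5 of them on the reverse strand, and Plk1 held both CHR spellings. On a search of both strands, CCAAT stood in the windows of 26 of the 35 members (74.3%), of 41.1% of 27025 genes with a window and of 42.8% of 10182 genes with FPKM of at least 1 in these corneas. TTTGAA or TTTAAA stood in 20 of 35 (57.1%), against 30.6% of all genes and 23.1% of the expressed ones.

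The motifs were spread unevenly over roles. Both CCAAT and a CHR spelling stood in 10 of 13 mitosis genes, in all 3 of Ccnb1, Ccnb2 and Cdk1 and in 3 of 9 replication genes. They stood in 1 of 4 inhibitors (Cdkn1b) and in none of 5 G1 genes, against 12.2% of all genes and 9.46% of the expressed ones. Any of 3 E2F spellings (TTTCGCGC and, differing in the middle, TTTGGCGC or TTTCCCGC) stood in 4 of 9 replication genes (Mcm3, Mcm5, Mcm6 and Mcm7). They also stood in Cdk1, Cdk2 and Cdkn2a and in none of 13 mitosis genes. That made 7 of 35 in all, against 2.12% of all genes and 3.89% of the expressed ones. Matches of different motifs may share bases. Cdc20 and Ube2c hold CCAAT and TTTGAA as well, although neither was far from its day 0 level at day 5, and Cdkn1b holds CCAAT and TTTAAA although it was lower at day 5. These are matches of letters in a window, not sites shown to be bound.

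The 4 inhibitors did not move as a group. Cdkn1b, which encodes the Cip/Kip protein p27 of resting and differentiated cells (chromosome 6, 134920357 to 134925579), had 205 (115 to 295) on day 0, 76.6 (40.5 to 113) on day 5 and 91.98 (49.5 to 134) on day 15. It was 2.67-fold lower at day 5 than at day 0 and apart (log2 ratio -1.41), with the day 0 lower bound and the day 5 upper bound almost touching. The call was lost when values were rescaled to a median log2 ratio of 0 (log2 ratio -1.33) or by the upper quartile of all loci (-1.31). At day 15 it was 2.23-fold lower than at day 0 and past 2-fold, with overlapping intervals, and was apart when rescaled by the reference genes (log2 ratio -1.40).

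Cdkn2b and Cdkn2a are neighbours on the same strand of chromosome 4 and encode the Ink4 inhibitors of Cdk4 and Cdk6, p15 and p16; Cdkn2a also encodes Arf, which stabilises p53. Cdkn2b (chromosome 4, 89305108 to 89311035) had 56.1 (26.5 to 85.8) on day 0, 19.5 (8.42 to 30.5) on day 5 and 39.9 (19.2 to 60.5) on day 15. It was 2.88-fold lower at day 5 than at day 0, past 2-fold with intervals that still overlapped unless rescaled by the reference genes (log2 ratio -1.81), and 2.05-fold higher at day 15 than at day 5. It was therefore lowest on the day when most division genes were highest.

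Cdkn2a (chromosome 4, 89274473 to 89294619) had 0.194 (0 to 0.588) on day 0, 0.327 (0 to 0.942) on day 5 and 4.77 (0.393 to 9.15) on day 15. Its interval began at 0 on days 0 and 5, and it passed the filter of FPKM 1 only through day 15, so it had to be higher there, and the call past 2-fold supports nothing further. The day 15 value was 14.6-fold that of day 5 as a plain ratio, which is imprecise against a level near 0, and 2.12 on the log2 (FPKM + 1) scale. The day 15 interval overlapped both others. The row does not separate the p16 and Arf transcripts.

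Cdkn1a, the p53-induced inhibitor p21, was nearly level. It had 19.8 (9.896 to 29.7) on day 0, 21.3 (10.9 to 31.7) on day 5 and 15.5 (7.097 to 23.8) on day 15, with overlapping intervals throughout. Summed over the 4 genes, FPKM was 281 on day 0, 118 on day 5 and 152 on day 15, and Cdkn1b made up 72.9%, 65.1% and 60.5% of it.

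Other genes of the pathway were read from 5 further lists. Of 30 other replication genes, 25 had a higher value at day 5 than at day 0, against 44.9% of all loci. At day 15, 28 were lower than at day 5, against 51.2%. The median log2 ratios were 0.49 and -0.43. Rescaled by the reference genes, 19 were higher at day 5, against 30.2% of loci so rescaled. Under that rescaling 26 were lower at day 15 than at day 5, where 57.0% of loci were higher. By the past 2-fold rule 1 of the 30 was higher at day 5 over day 0, fewer than the background share of 10.8%. It was Chaf1b, a chromatin assembly subunit, with 8.05 on day 0, 17.5 on day 5 and 10.6 on day 15. Gmnn, whose product geminin blocks relicensing of origins, had 4.59 on day 0, 9.64 on day 5 and 8.13 on day 15, and Uhrf1, which helps copy DNA methylation, 10.3 on day 0, 17.5 on day 5 and 8.304 on day 15. Chaf1a, the partner of Chaf1b, had 6.17 on day 0, 8.99 on day 5 and 4.45 on day 15. No replication gene outside the set was apart.

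Of 40 other mitosis genes, 32 had a higher value at day 5 than at day 0, against 44.9% of all loci. At day 15, 38 were lower than at day 5, against 51.2%. The medians were 0.46 and -0.55. Rescaled by the reference genes, 29 were higher at day 5, against 30.2% of loci so rescaled. Under that rescaling 38 were lower at day 15 than at day 5, where 57.0% of loci were higher. By the past 2-fold rule 5 were higher at day 5 over day 0, about the background share of 10.8%, 1 was lower, against 11.1%, and none was apart. Cks1b, a small subunit of the kinases that helps destroy p27, had 17.4 (5.09 to 29.7) on day 0, 48.4 (23.5 to 73.3) on day 5 and 38.02 (16.4 to 59.6) on day 15. Mad2l1, of the spindle checkpoint, had 6.996 on day 0, 18.9 on day 5 and 13.8 on day 15. Against this trend Pttg1, the securin that guards sister chromatids, had 131 (64.1 to 198) on day 0, 50.9 (19.8 to 81.999) on day 5 and 55.5 (22.6 to 88.5) on day 15, and Kif23, a kinesin of cytokinesis, 12.4 on day 0, 7.81 on day 5 and 4.88 on day 15.

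Of 22 other regulators, 20 reached FPKM of at least 1. Of these, 11 had a higher value at day 5 than at day 0, against 44.9% of all loci, with a median of 0.16. Rescaled by the reference genes, 10 were higher, against 30.2% of loci so rescaled. Myc, the growth factor-induced activator of cell growth, had 4.396 (1.33 to 7.47) on day 0, 12.6 (6.18 to 18.97) on day 5 and 8.61 (3.62 to 13.6) on day 15 and was 2.86-fold the day 0 level at day 5, with overlapping intervals. E2f5 and E2f7 had intervals that began at 0 each day. Chek1, the replication checkpoint kinase, had 3.88 on day 0, 5.06 on day 5 and 2.94 on day 15.

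Among 6 other inhibitors and antiproliferative genes, 5 had a higher value at day 5 than at day 0, against 44.9% of all loci. Rescaled by the reference genes, 4 were higher, against 30.2% of loci so rescaled. The median log2 ratio of the 6 as deposited was 0.75. Btg1 was higher and apart, against 3.42% of loci. Btg1, an antiproliferative gene on a locus 3.42 times the annotated span, had 4.66 (2.103 to 7.21) on day 0, 15.3 (7.74 to 22.8) on day 5 and 9.89 (5.16 to 14.6) on day 15, and its relative Btg2 39.8 (19.97 to 59.7) on day 0, 109 (59.6 to 159) on day 5 and 48.6 (25.7 to 71.6) on day 15. Cdkn1c, the third Cip/Kip gene, had 6.06 on day 0, 10.5 on day 5 and 15.05 on day 15, higher on each later day. Cdkn2d, another Ink4 gene, had 23.3 on day 0, 41.5 on day 5 and 32.9 on day 15. Cdkn2c, an Ink4 gene as well, was the 1 of the 6 with a lower value at day 5, with 27.7 on day 0, 18.2 on day 5 and 20.5 on day 15, and was 1.52-fold lower at day 5 than at day 0. Across both sets of inhibitors, Cdkn1b, Cdkn2b and Cdkn2c thus had lower values at day 5 than at day 0. Cdkn1a, Cdkn1c, Cdkn2a, Cdkn2d, Cdkn3, Btg1 and Btg2 had higher ones, with Cdkn2a under FPKM 1 on both days. Cdkn1a and Cdkn3 joined the lower side when rescaled by the reference genes.

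Of 14 p53 targets, 13 reached FPKM of at least 1. At day 5, 8 of these were higher in value than at day 0, against 44.9% of all loci, and 5 lower, against 55.1%. Their median log2 ratio was 0.39. Rescaled by the reference genes, 7 were higher, against 30.2% of loci so rescaled, and 6 lower. Pmaip1, which encodes the death protein Noxa, had 0.982 (0 to 2.002) on day 0, 27.4 (15.5 to 39.2) on day 5 and 17.6 (8.87 to 26.4) on day 15. It was higher and apart on both days after the burn, against 3.42% and 2.91% of loci. However, it passed the filter of FPKM 1 only through those days and was named for its large ratio. Fas, the death receptor, had 1.53 (0.252 to 2.81) on day 0, 9.56 (1.34 to 17.8) on day 5 and 6.89 (0.0409 to 13.7) on day 15. Phlda3, a repressor of Akt, had 74.5 (37.7 to 111) on day 0, 29.7 (18.3 to 41.2) on day 5 and 24.2 (14.2 to 34.2) on day 15. It was lower and apart at day 15 over day 0, against 1.81% of loci. Gadd45b, a stress gene, had 11.8 on day 0, 16.8 on day 5 and 8.38 on day 15. Cdkn1a was nearly level, and these p53 targets differed in both directions, with a list median at day 5 above the -0.08 of all loci.

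**Figure D4:**
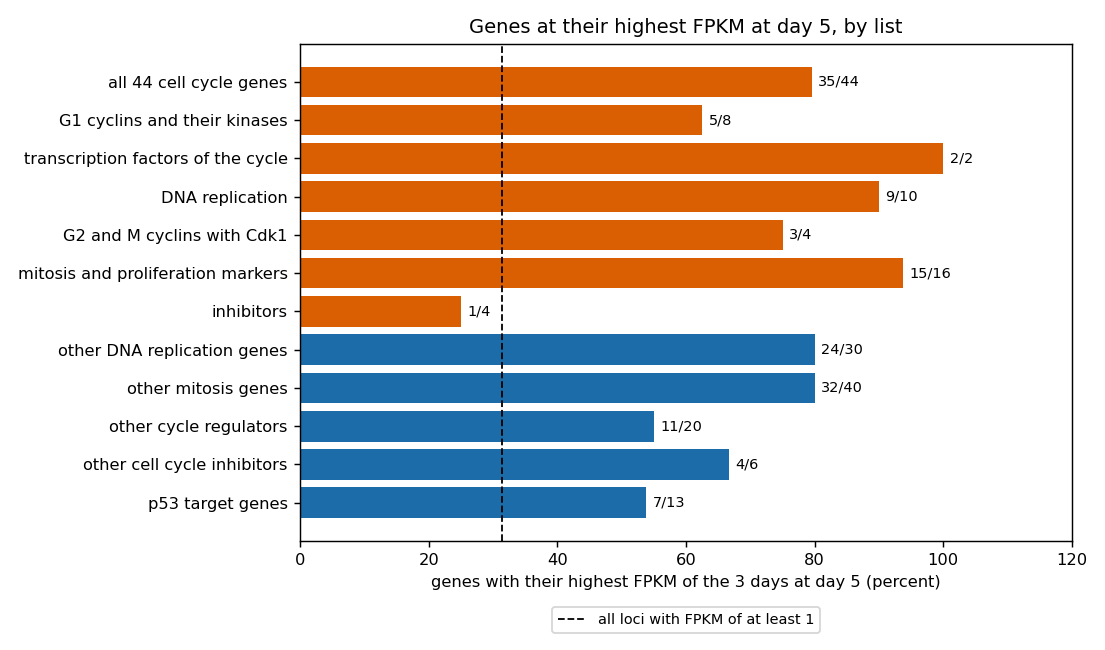
Share of genes (percent) whose highest FPKM of the 3 days was at day 5, for the 44 genes and their roles (orange) and 5 further lists (blue), with counts beside the bars; the dashed line is the share among 15900 loci with FPKM of at least 1 (31.4%). Both further lists of replication and mitosis stand at 80.0%, above that line, and 1 of the 4 inhibitors was highest at day 5. Rescaled by the reference genes the counts of these lists are 19 of 30, 29 of 40 and 0 of 4, while the dashed line is as deposited.

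Summed FPKM of cell type markers also differed between days, and in bulk tissue fewer cells of a type and less RNA per cell cannot be told apart. Markers of the corneal surface were present at day 0, when Aldh3a1 stood at 9149.9, and 5 of them with a usable estimate summed to 35697, 473 and 1346 at days 0, 5 and 15. Markers of basal epithelium, the dividing layer, summed to 4272, 4957 and 7084 over 8 genes, with 5 of 8 higher in value at day 5 than at day 0 (3 when rescaled by the reference genes) and 4 of 8 at day 15 than at day 0. Of all loci, 44.9% were higher at day 5 than at day 0 and 43.1% at day 15. Krt15 made up the largest share of each sum. Krt5, Trp63 and Col17a1 had lower values on both days after the burn than at day 0. Krt14, Krt15, Krt17 and Itga6 had higher ones on both days. Krt17 had 14.4 on day 0, 564 on day 5 and 360 on day 15. It was higher and apart on both days, against 3.42% and 2.91% of loci. Krt14 had 180 on day 0, 500.2 on day 5 and 760 on day 15. Neutrophil markers summed to 22.5, 416 and 108 over 12 loci of 11 genes, highest at day 5, and S100a8 and S100a9 made up most of each sum. The defining precursor markers Mpo, Ngp and Camp stayed under FPKM 1 on each day (at most 0.818, for Camp at day 5), and Elane was listed at 0 on a locus far longer than the gene. Over 9 macrophage loci with 1 symbol the sums were 135, 647 and 1023, over 10 endothelial genes 22.9, 86.9 and 92.6, over 6 T cell genes 1.10, 4.48 and 5.58, and over 9 fibroblast and keratocyte genes 5754, 5198 and 6184. The last sums hide opposite differences, since 7 of the 9 were higher at day 5 than at day 0 (6 when rescaled by the reference genes), among them Col3a1 with 19.9-fold the day 0 level, while Dcn was 2.51-fold and Kera 45.9-fold lower. Lens markers summed to 286, 26.4 and 193 over 7 genes and skeletal muscle markers to 639, 369 and 89.9 over 7. The part of any of these in the division genes' values was not tested.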

How the data were processed

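Poly(A) libraries of 6 whole-cornea samples, 2 per group, were sequenced, per the labels' protocols. Build mm10 and the tools Cuffdiff, Cufflinks 2.2.1, TopHat2 2.1.0 and Bowtie2 2.2.6 are listed in the submitters' processing notes, without their roles. The authors deposited FPKM once per group with an interval, whose confidence level is not given in the sources used here, and 0 columns of single samples. Read depth is therefore unknown, and counting intervals, tests and replicate checks could not be had. For genes with FPKM of at least 5 the median interval of members reached 52.9% of the value at day 0, 47.3% at day 5 and 51.6% at day 15 on either side. Members and lists were chosen with earlier results of these data known. Ratios used a pseudocount of 1, which understates low genes. All loci were run through the call rule, which was tried on simulated data with noise smaller than the deposited intervals imply. With the interval widths given above, a gene past 2-fold could still miss apart, as Cenpe did at 2.65-fold at day 5 over day 0. Named genes outside the set were up to 4 per list with the largest log2 ratio among those at FPKM of at least 5. Loci were compared with GENCODE M21 (GRCm38) and given 1-based. Counting was not stated to use strand. Python 3.11.15, numpy 2.4.6, pandas 2.3.3 and matplotlib 3.10.9 were used.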

Additional observations from a re-analysis of the deposited data

How the results depend on the processing

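Of 87 summary values recomputed under alternatives, 73 stayed within 1.5 times (counts) or 0.1 (log2 medians) of the value reported. Among these, rescaling by the reference genes or the upper quartile was applied to the medians only, not to the counts of calls. No call of a single gene changed direction, but no alternative could reverse a 2-fold difference, as the largest rescaling factor was 1.27. Genes not called apart did change sides when rescaled by the reference genes, 7 at day 5 over day 0 and 14 at day 15 over day 0. With a fold of 1.5 in place of 2, genes past the fold numbered 20 higher at day 5 over day 0, 4 lower at day 15 over day 0, and 2 higher and 19 lower at day 15 over day 5. When each FPKM had only to lie outside the other group's interval, 5 were higher (Ccnb1, Mki67, Bub1, Tpx2 and Cenpe) at day 5 over day 0, 1 was higher (Cdkn2a) and 2 lower (Ccnd1 and Cdkn1b) at day 15 over day 0, and 1 was higher (Cdkn2a) and 2 lower (Rrm2 and Mki67) at day 15 over day 5. Rescaled to a median log2 ratio of 0, 1 gene (Ccnd1) was lower and apart at day 5 over day 0. Rescaled by the reference genes, the median log2 ratio was 0.23 at day 5 over day 0 and -0.23 at day 15 over day 0. With a pseudocount of 0.1, 2 were higher and 5 lower past 2-fold at day 15 over day 5. The share of all loci called is not given at that pseudocount, nor for apart calls under the rescaling to a median of 0. Those counts of members therefore cannot be set against a background. Leaving out the 8 genes on widened loci, chosen after seeing the data, gave a median of 0.58 at day 5 over day 0. No paired analysis was possible because the columns carry no replicate numbers, and leaving out a replicate was not run for the same reason.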
